A study of Schizosaccharomyces pombe with 4 samples.

Results

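The promoters of 6 fission yeast cell wall genes (gas1, gas5, exg1, ags1, cts2 and chs2) were examined in binding maps of 3 transcription factors. The annotation gives enzymes that build or cut glucan or chitin, and for chs2 a chitin synthase-like protein. These genes were chosen from the peak lists themselves. A peak was assigned to a gene when its centre lay from 1000 bp upstream to 250 bp downstream of the annotated 5′ end. For the 6 chosen genes this rule gave 14 of the 210 deposited peaks. Among all 5113 nuclear protein-coding genes, it gave 9 genes with a Sep1 peak, 145 with a Fkh2 peak and 54 with a Sak1 peak. The 6 were picked from genes with a peak, so the presence of a peak is how they were found. The values below describe the peaks without a test. The maps came from chromatin immunoprecipitation and sequencing (ChIP-seq) in Schizosaccharomyces pombe with a C-terminal TAP tag, which IgG beads bind. Strain JLP1670 carried tagged Sep1 and had received the proteasome inhibitor bortezomib (1 mM, 45 min), strain JLP1586 carried tagged Fkh2, strain JLP1792 carried tagged Sak1, and strain F108 was untagged. All cultures were asynchronous in YES medium, and the labels give a treatment for the Sep1 culture alone, so factor and treatment cannot be told apart in that list.

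Each library pooled 2 biological experiments, so a factor has 1 value per gene and no replicate error. The libraries held 906632 tags for Sep1, 1042990 for Fkh2 and 795148 for Sak1, and the Sep1 list had 11 peaks, the Fkh2 list 152 and the Sak1 list 47. All 3 were called by the authors against the same untagged library, so the lists share their control. Tag counts are given as the authors scaled them, per 10000000 tags. The 95% intervals (exact Poisson for counts, exact binomial for ratios and folds) cover counting error only, and the tagged factors themselves cannot be checked in binding data.

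The fission yeast wall is built mainly of beta-glucan and alpha-glucan, and growth and cell separation need enzymes that make, branch, elongate and cut these polymers. Forkhead factors, to which Fkh2 and Sep1 belong, recognise short words with the core TAAACA and control genes transcribed around mitosis and cytokinesis in this yeast. Sak1 belongs to the RFX family, whose members bind an inverted repeat, the X-box, in which a GTT-like and an AAC-like arm face each other.

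The upstream stretches below are shown because they hold the word matches nearest to the peak centres. Each covers all matches within 100 bp of a peak centre plus 10 bases on either side, stops short of the annotated 5′ end and is written 5′ to 3′ on the strand of the gene, from the RefSeq assembly ASM294v3. Capitals mark matches on either strand to the forkhead words GTAAACA and TAAACA, the RFX word GTTACCA or its variant GTTGCCA, the shorter form GTTNCC, the word GTTGCTA, an inverted repeat of GTT and AAC with 8 bases between, and the MCB word ACGCGT. Overlapping matches run together in 1 block of capitals.
gas1 (I:4881053-4881248, minus strand): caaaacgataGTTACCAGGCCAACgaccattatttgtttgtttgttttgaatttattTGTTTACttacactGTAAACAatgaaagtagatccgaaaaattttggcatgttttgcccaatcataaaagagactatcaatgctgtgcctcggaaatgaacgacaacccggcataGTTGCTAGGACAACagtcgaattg
gas5 (I:5309164-5309255, minus strand): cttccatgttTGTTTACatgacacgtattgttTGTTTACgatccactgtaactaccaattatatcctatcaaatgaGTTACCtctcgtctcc
exg1 (II:3514269-3514438, plus strand): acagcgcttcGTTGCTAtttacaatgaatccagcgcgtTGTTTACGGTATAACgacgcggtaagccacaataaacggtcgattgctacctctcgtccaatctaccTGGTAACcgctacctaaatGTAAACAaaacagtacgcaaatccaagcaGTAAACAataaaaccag
ags1 (III:1372842-1372995, plus strand): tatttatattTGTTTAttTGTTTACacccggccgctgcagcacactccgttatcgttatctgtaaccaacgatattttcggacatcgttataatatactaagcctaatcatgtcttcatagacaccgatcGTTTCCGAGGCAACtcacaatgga
cts2 (I:3292807-3292878, minus strand): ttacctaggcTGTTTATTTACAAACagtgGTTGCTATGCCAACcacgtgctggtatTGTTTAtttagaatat
chs2 (II:1095080-1095171, plus strand): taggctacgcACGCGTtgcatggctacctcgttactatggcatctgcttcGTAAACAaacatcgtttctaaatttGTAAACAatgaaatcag

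By the rule, Sep1 peaks lay at 3 of the 6 genes (gas1, exg1 and cts2), Fkh2 peaks at all 6 and Sak1 peaks at 5 (all but chs2). Among all 5113 genes the same reach held a Sep1 peak for 0.176%, a Fkh2 peak for 2.84% and a Sak1 peak for 1.06%. Since these counts fixed the choice of genes, nothing is read from the difference. The peaks of the 6 genes were 3 of 11 in the Sep1 list, 6 of 152 in the Fkh2 list and 5 of 47 in the Sak1 list. They held 25.5% of the tags in the Sep1 list, 7.78% of those in the Fkh2 list and 11.0% of those in the Sak1 list. Each gene had at most 1 peak per list in reach. The nearest peak beyond the reach was 51.5 kb away for Sep1 (from cts2), 9.82 kb for Fkh2 (from cts2) and 20.1 kb for Sak1 (from gas5), so no other peak lay close to the limits of the rule. The peak centres lay 23 to 425 bp upstream of the 5′ ends, well inside it.

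The beta-glucan genes gas1 and gas5 encode glucanosyltransferases, enzymes of the cell surface that cut and rejoin beta-glucan chains and so elongate them. At gas1 (SPAC19B12.02C, I:4878579-4880740) the normalised tag count was 882 for Sep1 (95% interval 700 to 1098), 3806 for Fkh2 (3441 to 4200) and 3421 for Sak1 (3026 to 3852). The Sep1 count was low in its list, at rank 8 of 11, while the Fkh2 count was high, at rank 7 of 152, and so was the Sak1 count, at rank 7 of 47. The gas1 folds over the untagged library were 6.13 for Sep1 over 7 control tags, 46.4 for Fkh2 over 4 and 41.7 for Sak1 over 4.

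At gas5 (SPAC11E3.13C, I:5306742-5309045) the count was 1012 for Fkh2 (823 to 1219) and 1245 for Sak1 (1012 to 1516), with no Sep1 peak. These were middling to low in their lists, with rank 67 of 152 for Fkh2 and 35 of 47 for Sak1. The fold was 5.46 for Fkh2 over 9 control tags, with an interval of 2.76 to 12.2, and 10.1 for Sak1 over 6 control tags. By fold, the gas5 peak stood at rank 127 of the 152 Fkh2 peaks, the lowest of the 6 genes. The lower bound of its interval is below the 4 fold that the peak caller required, as are those of the 3 Sep1 peaks (2.84 at gas1, 3.76 at exg1 and 2.87 at cts2).

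The gene ags1 (SPCC1281.01, III:1373097-1381763) encodes the alpha-glucan synthase that makes the other main wall glucan. Its count was 1385 for Fkh2 (1164 to 1625) and 1748 for Sak1 (1470 to 2064), and no Sep1 peak was listed. It ranked 46 of 152 in the Fkh2 list, in the upper part of it, and 25 of 47 in the Sak1 list, near its middle. The folds were 16.9 for Fkh2 over 4 control tags and 12.1 for Sak1 over 7. The annotated leader of ags1 is 1075 bp long, so the peak centres lay 1264 bp (Fkh2) and 1207 bp (Sak1) from its start codon. With the reach counted from start codons, ags1 dropped out of both lists.

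The glucan-cutting gene exg1 (SPBC1105.05, II:3514604-3516567) is annotated as a beta-glucosidase of wall glucan. Its count was 938 for Sep1 (749 to 1159), 3222 for Fkh2 (2886 to 3585) and 1069 for Sak1 (854 to 1322). The Fkh2 count was the high one, at rank 12 of 152, while the Sak1 count was low in its list, at rank 40 of 47, and the Sep1 count ranked 5 of 11. The control counts were small, and the folds were 9.11 for Sep1 over 5 tags, 78.5 for Fkh2 over 2 and 26.6 for Sak1 over 2. The interval of the Fkh2 fold at exg1 ran from 21.5 to 649, so its size is poorly fixed by 2 control tags. By fold over the untagged library the Sak1 peak of exg1 stood at rank 17 of 47, with an interval of 6.98 to 218. By fold over the 10000 bp around it, which was 5.54, this peak stood at rank 38 of 47.

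The chitin genes differed in how many factors they had. At cts2 (SPAPB1E7.04C, I:3288629-3292769), annotated as a chitinase, the count was 971 for Sep1 (778 to 1196), 4166 for Fkh2 (3779 to 4572) and 3081 for Sak1 (2707 to 3492). It had the highest Sep1 and Fkh2 counts of the 6 genes, and it ranked 4 of 11 for Sep1, 5 of 152 for Fkh2 and 8 of 47 for Sak1. Its fold of 102 for Fkh2 rested on 2 control tags, that of 5.90 for Sep1 on 8 and that of 16.6 for Sak1 on 9. By fold, the cts2 peak ranked 10 of 11 in the Sep1 list, 6 of 152 in the Fkh2 list and 26 of 47 in the Sak1 list. At chs2 (SPBC1709.01, II:1095221-1098228), annotated as a chitin synthase-like protein, Fkh2 had a peak with a count of 1424 (1208 to 1677), rank 44 of 152 and a fold of 9.88 over 7 control tags. Neither Sep1 nor Sak1 had a peak in reach of chs2, and the nearest Sak1 peak was 85.3 kb away.

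**Figure D1:**
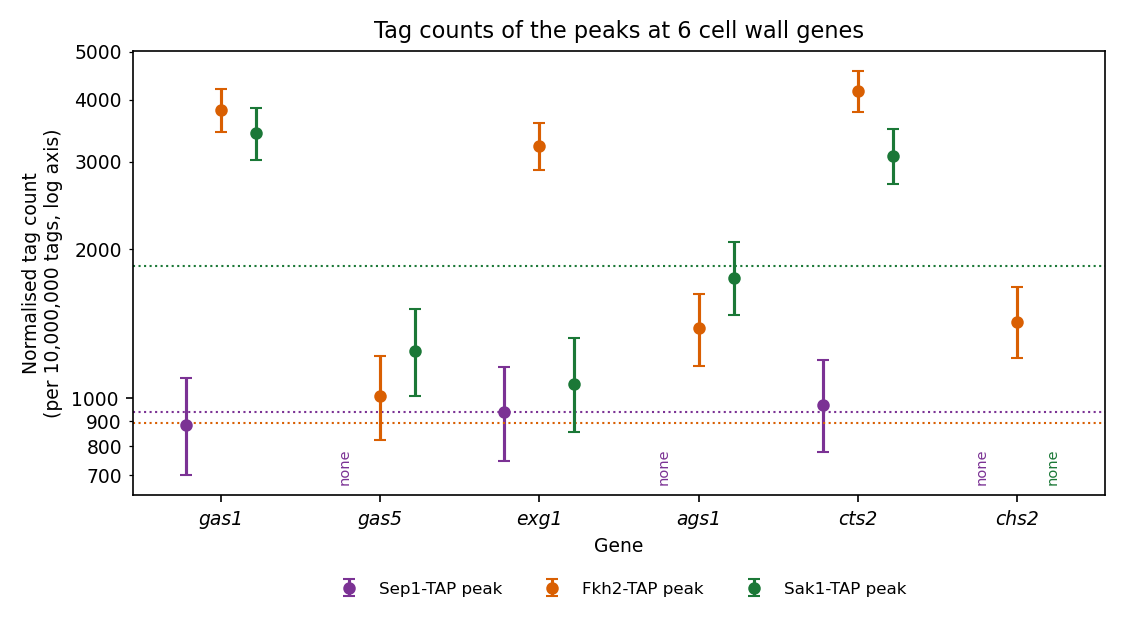
Normalised tag count (log axis, per 10000000 tags) of each peak in reach of the 6 genes in the Sep1-TAP, Fkh2-TAP and Sak1-TAP libraries, 1 pooled library each. Bars are exact 95% Poisson intervals, dotted lines are the medians of the whole lists (938, 894 and 1849) and "none" marks a gene with no listed peak. The Sep1 counts lie between 882 and 971, while the Fkh2 counts spread from 1012 to 4166.

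The Fkh2 counts of cts2, gas1 and exg1 lay between 3222 and 4166, and their intervals did not overlap those of chs2, ags1 and gas5, at 1012 to 1424. Among the higher counts the order cts2, gas1, exg1 is not resolved between neighbours, whose intervals overlap, and among the lower ones the neighbours chs2 and ags1 and the neighbours ags1 and gas5 also overlap. The 3 genes with the higher Fkh2 counts were also the 3 with a Sep1 peak. In the Sak1 list gas1 and cts2 stood apart, with counts of 3081 to 3421, and ags1, gas5 and exg1 lay between 1069 and 1748. The Sep1 counts were nearly level, at 882, 938 and 971, and their intervals overlapped. Against the medians of the lists, cts2 lay above, exg1 at and gas1 below the Sep1 median of 938. All 6 Fkh2 counts were above the Fkh2 median of 894, and 2 of the 5 Sak1 counts (gas1 and cts2) were above the Sak1 median of 1849.

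A gene without a listed peak was not shown to be unbound. The lowest listed count was 364 for Sep1, 278 for Fkh2 and 440 for Sak1. The headers give a threshold of 34 tags for Sep1, 30 for Fkh2 and 35 for Sak1. The lowest Sep1 and Fkh2 counts correspond to slightly fewer tags, so the threshold is not an exact floor on the listed counts. The comparison with the untagged library then removed 2113 of 2398 putative Sep1 regions, 4969 of 5476 Fkh2 regions and 907 of 1109 Sak1 regions. A filter on local signal, over 10000 bp, removed a further 274 Sep1, 355 Fkh2 and 155 Sak1 regions. The Sep1 peaks at gas1, exg1 and cts2 held 80, 85 and 88 tags, which was 5.33, 5.66 and 5.86 times the mean of that library over the same width. Their folds over the 10000 bp around them were 4.21, 4.91 and 4.12, close to the 4 fold required, and the cts2 value was the lowest local fold in the Sep1 list. Sep1 signal under 4 fold over its surroundings at gas5, ags1 or chs2 would not have been listed.

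**Figure D2:**
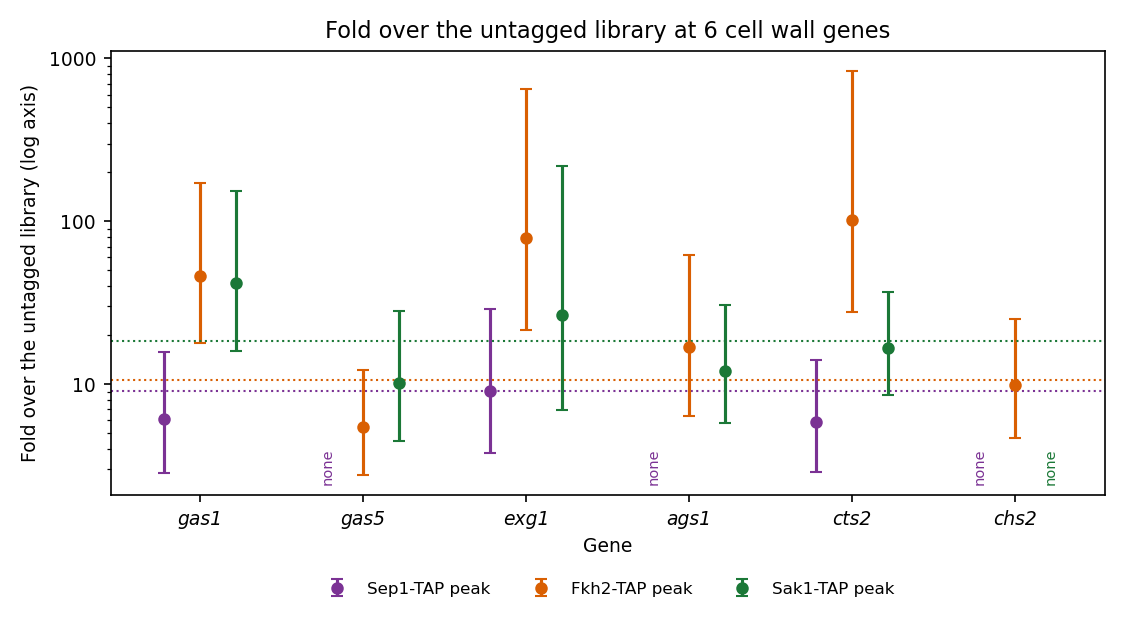
Fold over the untagged library (log axis, deposited by the authors) for each peak in reach of the 6 genes, with exact 95% intervals from the recovered tag counts. Dotted lines are the list medians of 9.11 for Sep1, 10.6 for Fkh2 and 18.3 for Sak1. The intervals are wide, with 2 to 9 control tags under each peak.

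At exg1 the Fkh2 count was 3.01 times the Sak1 count (interval 2.37 to 3.87), which ranked 2 of the 36 places with overlapping Fkh2 and Sak1 peaks. At cts2 the ratio was 1.35 (1.15 to 1.59) and at gas1 it was 1.11 (0.951 to 1.30). At gas5 it was 0.812 (0.609 to 1.08) and at ags1 it was 0.793 (0.621 to 1.00). The exg1 interval lay above those of the other 4 genes, while gas1, gas5 and ags1 had intervals that reach 1. Over all 36 places, which include these 5 genes, the median ratio was 0.978, with a range of 0.241 to 3.93. The other 4 genes ranked 9 (cts2), 14 (gas1), 24 (gas5) and 25 (ags1) of 36.

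The Fkh2 peaks were 155 bp wide and the Sak1 peaks 235 bp wide. Per 100 bp of peak, the ratios became 4.57 at exg1, 2.05 at cts2, 1.69 at gas1, 1.23 at gas5 and 1.20 at ags1, beside a median of 1.48 over the 36 places. All peaks of a list had 1 width, so this scale multiplies every ratio by the same factor, and whether gas5 and ags1 lie below or above 1 depends on the scale. For the 3 genes with a Sep1 peak, the Sep1 count was 0.291 of the Fkh2 count at exg1 (0.227 to 0.370), 0.233 at cts2 (0.183 to 0.294) and 0.232 at gas1 (0.180 to 0.295). The intervals of these 3 ratios overlapped each other. The ratios lay close to the median of 0.245 over the 8 places shared by Sep1 and Fkh2. Those 8 places include these 3, so part of the closeness is built in. The Sep1 count was 0.877 of the Sak1 count at exg1 (0.642 to 1.20), 0.315 at cts2 and 0.258 at gas1, the exg1 value being the nearest to 1. The Sep1 peaks were 209 bp wide. Per 100 bp of peak, the Sep1 over Fkh2 ratios became 0.216 at exg1, 0.173 at cts2 and 0.172 at gas1, beside a median of 0.182. The Sep1 over Sak1 ratios became 0.986, 0.354 and 0.290 at these genes. All these ratios compare single pooled libraries, and the Sep1 culture alone had the inhibitor.

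**Figure D3:**
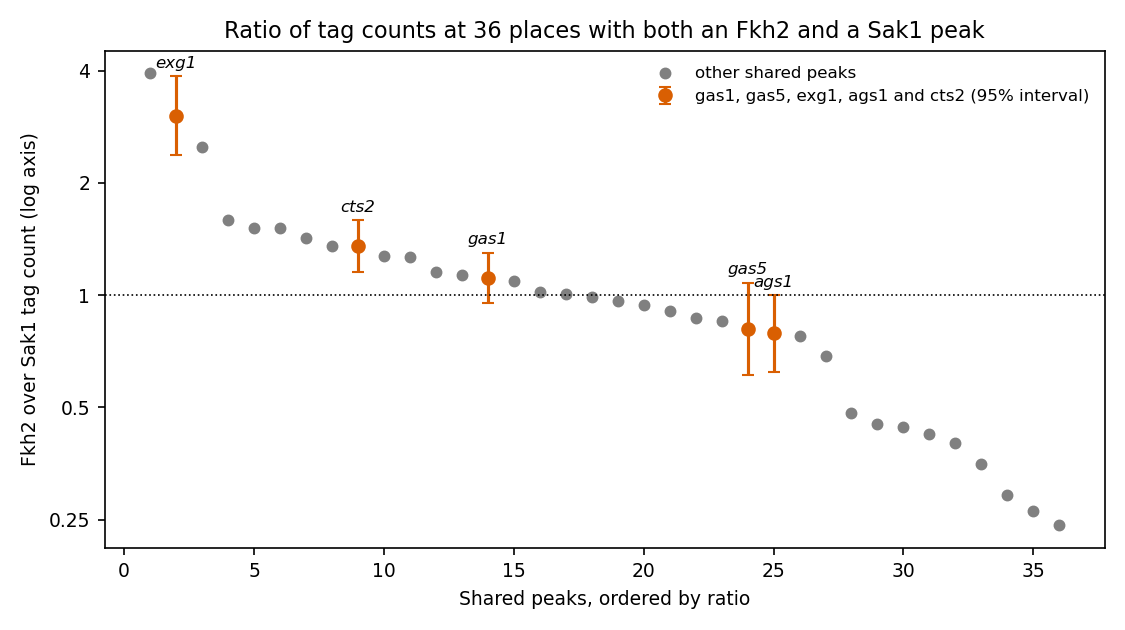
Ratio of Fkh2 to Sak1 normalised tag counts (log axis) at the 36 places where the peaks of both overlap, in falling order, with the wall genes in orange and their exact 95% intervals. The exg1 ratio of 3.01 is second of 36, and the other 4 genes lie between 0.793 and 1.35.

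The Fkh2 peaks, the only ones present at all 6 genes, spanned I:4881023-4881177 at gas1, I:5309083-5309237 at gas5, II:3514232-3514386 at exg1, III:1372831-1372985 at ags1, I:3292763-3292917 at cts2 and II:1095046-1095200 at chs2. All peak centres lay between protein-coding genes, and only the cts2 peaks reached past a 5′ end. The centres of the Sep1 peak at gas1, the Fkh2 peaks at gas1, gas5 and chs2 and the Sak1 peak at gas5 fell on annotated long noncoding RNA genes of the minus strand. The gap to the next protein-coding gene upstream was 2213 bp at gas1 (to bgs3, a beta-glucan synthase gene), 2440 bp at gas5, 2233 bp at exg1 and 3303 bp at ags1. No second protein-coding start was in reach at those 4 genes. At cts2 the gap was 777 bp, and the start of gde1 was also in reach, 703 to 755 bp from the centres, against 23 to 75 bp for cts2. At chs2 the gap was 479 bp, and pst3, transcribed away from it, had its start 382 bp from the Fkh2 centre, against 98 bp for chs2. The bgs3 start itself was out of reach of the gas1 peaks.

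The Sep1 and Fkh2 centres were 1 bp apart at exg1, and the Fkh2 and Sak1 centres were 4 bp apart at cts2. The remaining centre at those genes lay 41 to 52 bp from them, and at gas1 all 3 were spread. At exg1 the Sep1 centre lay 296 bp and the Fkh2 centre 295 bp upstream of the 5′ end, with the Sak1 centre at 254 bp. At cts2 they lay 23 bp (Sep1), 71 bp (Fkh2) and 75 bp (Sak1) upstream. At gas1 they lay 425 bp (Sep1), 360 bp (Fkh2) and 258 bp (Sak1) upstream, so the Sep1 and Sak1 centres were 167 bp apart and their peaks overlapped by 55 bp. At ags1 the centres were at 189 bp (Fkh2) and 132 bp (Sak1), and at gas5 at 115 bp (Fkh2) and 189 bp (Sak1). The Fkh2 and Sak1 centres were thus 4 bp apart at cts2, 41 bp at exg1, 57 bp at ags1, 74 bp at gas5 and 102 bp at gas1, beside a median of 28 bp over all 36 shared places. Sak1 was the nearer to the gene at gas1, exg1 and ags1 and the farther at gas5, so no common order was seen. At cts2 the difference of 4 bp is small beside peaks 155 bp (Fkh2) and 235 bp (Sak1) wide, and no order is read from it. The headers give fragment lengths of 208 bp for Sep1, 110 bp for Fkh2 and 230 bp for Sak1. Their effect on the centres was not tested.

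The gas1 peaks were also among the least compact of each list. The focus ratio, the share of tags that HOMER finds on the sides of a centre where a point source would put them, was 0.653 for Sep1, 0.671 for Fkh2 and 0.690 for Sak1 at gas1. These were the 2nd lowest of 11, the 9th lowest of 152 and the 5th lowest of 47. The Sep1 peaks at exg1 and cts2 had ratios of 0.708 and 0.709, beside a list median of 0.717. The other Fkh2 peaks had ratios of 0.783 to 0.860 and the other Sak1 peaks 0.752 to 0.866, beside list medians of 0.809 for Fkh2 and 0.778 for Sak1. In the Sep1 list exg1 and cts2 were also on the low side, at 4th and 5th lowest of 11. The rule for the genes did not use this measure. However, gas1 is described here because its ratios were low, so the 3 libraries lend it no separate support.

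**Figure D4:**
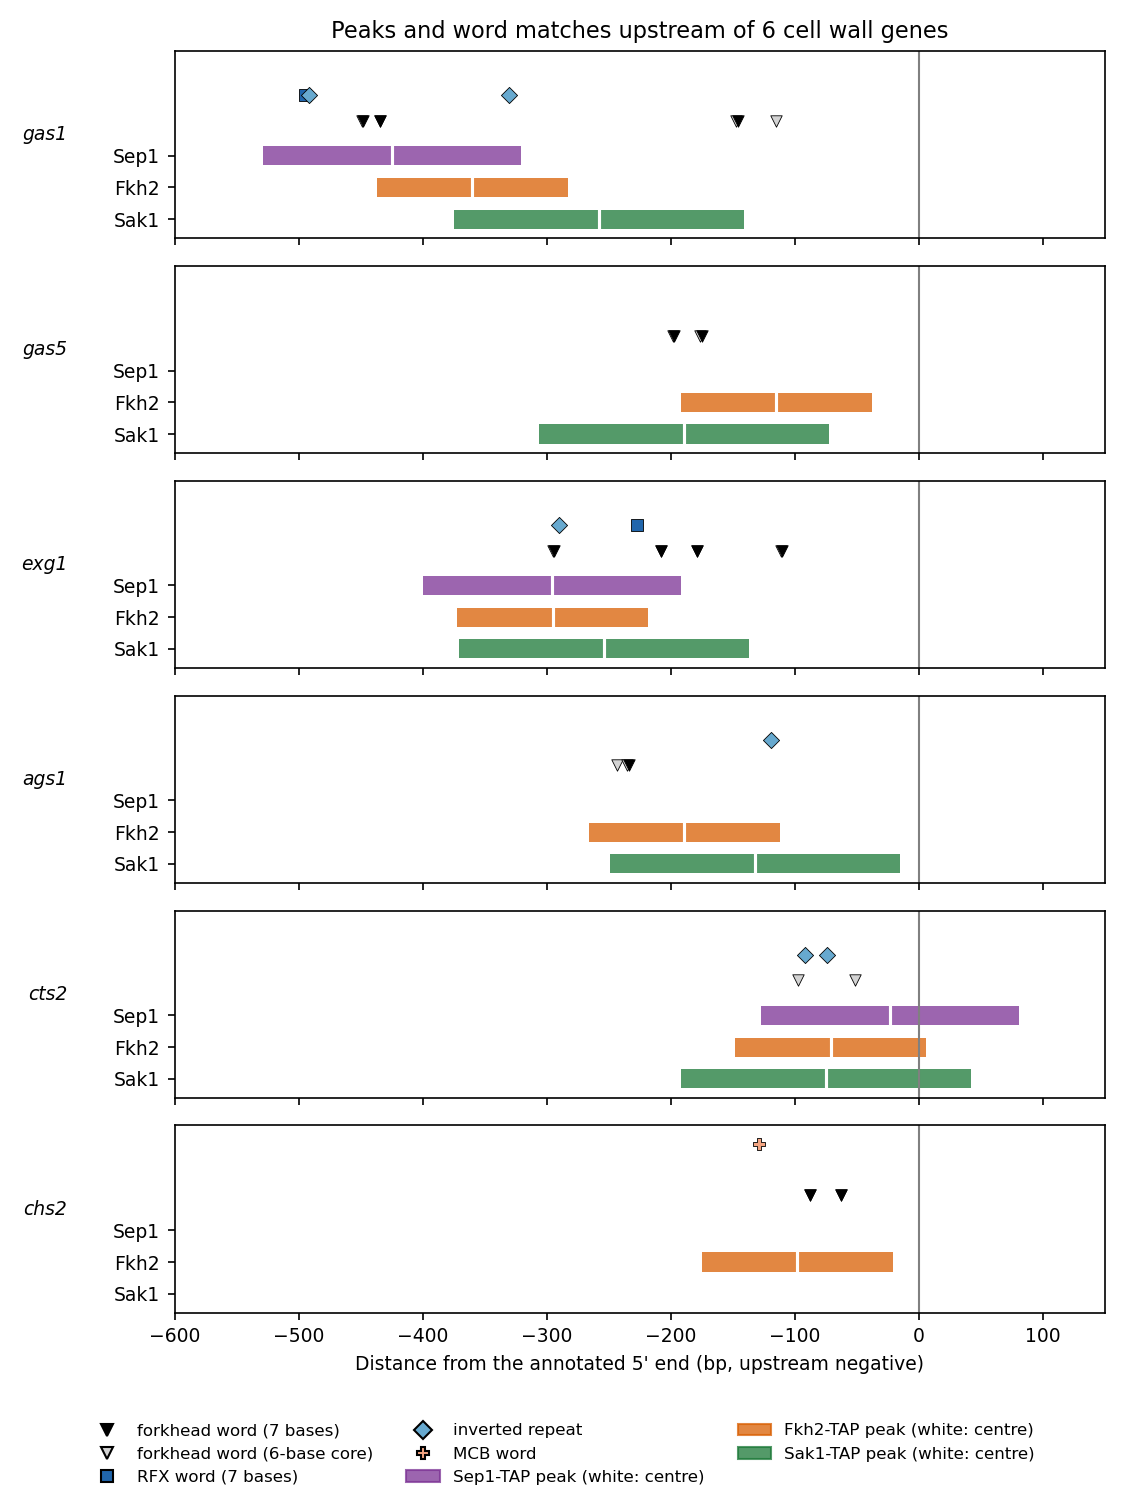
Called peaks (bars, centre in white) and word matches (symbols) by distance from the annotated 5′ end of each gene (bp, upstream negative, 5′ end at the grey line). Forkhead words are triangles pointing down (grey for the 6-base core alone), RFX words squares, inverted repeats diamonds and the MCB word a cross. At gas1 the 3 bars step from Sep1, 425 bp upstream, to Sak1, 258 bp upstream, while at exg1 and cts2 they largely overlap.

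The forkhead word GTAAACA lay within 150 bp of the centre at 2 of the 3 Sep1 peaks, 5 of the 6 Fkh2 peaks and 4 of the 5 Sak1 peaks. Over all nuclear peaks (11 for Sep1, 152 for Fkh2 and 46 for Sak1, whose remaining peak is mitochondrial) the shares were 63.6% for Sep1, 73.7% for Fkh2 and 71.7% for Sak1, and 16.5% of 5112 promoters of 300 bp (250 before to 50 after the 5′ end) held it, counting both strands. The exception in all 3 lists was cts2, the gene with the highest Fkh2 count. Its sequence holds the 6-base core TAAACA at 51 and 97 bp upstream, read on the opposite strand, and 43.4% of promoters hold this core. At exg1, 4 copies of GTAAACA lay 110 to 294 bp upstream, and the farthest was 2 bp from the Sep1 centre and 1 bp from the Fkh2 centre. At chs2 there were 2 copies, 10 and 35 bp from the Fkh2 centre.

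At gas5, 2 copies of GTAAACA lay 14 and 8 bp from the Sak1 centre but 60 and 82 bp from the Fkh2 centre. At ags1 the single copy was 45 bp from the Fkh2 centre and 102 bp from the Sak1 centre. At gas1 a pair of copies on opposite strands lay 434 and 448 bp upstream, which is 9 and 23 bp from the Sep1 centre and 74 and 88 bp from the Fkh2 centre. Another gas1 copy lay 146 bp upstream, 112 bp from the Sak1 centre. The copy at 146 bp thus lay at the gene-side edge of the Sak1 peak, while the pair lay well inside the Sep1 peak.

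The RFX words GTTACCA and GTTGCCA lay within 150 bp of a centre at gas1 and exg1 alone among the 6 genes, which is 2 of 3 Sep1 peaks, 2 of 6 Fkh2 peaks and 1 of 5 Sak1 peaks. Over all nuclear peaks the shares were 27.3% for Sep1, 14.5% for Fkh2 and 32.6% for Sak1, and 5.03% of promoters hold one of them. The gas1 match was 495 bp upstream, 70 bp from the Sep1 centre and 237 bp from the Sak1 centre, outside the Sak1 window. The exg1 match was 27 bp from the Sak1 centre. The shorter form GTTNCC, present at 45.5% of nuclear Sep1 peaks, 44.1% of Fkh2 peaks, 65.2% of Sak1 peaks and in 29.3% of promoters, added gas5 (57 bp from the Sak1 centre) and ags1 (9 and 17 bp). The word GTTGCTA, taken from an earlier search of these same peaks, lay at gas1, exg1 and cts2, 75, 68 and 2 bp from the Sak1 centres. It is at 54.5% of all nuclear Sep1 peaks, 13.8% of Fkh2 peaks and 34.8% of Sak1 peaks, and in 5.22% of promoters.

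An arrangement noticed while reading the sequences was GTT and AAC separated by 8 bases, the spacing of an X-box. It is a palindrome, so both strands give the same match, and 10.3% of promoters hold it. Matches that overlap no forkhead word were these.
cts2 (I:3292836-3292849): GTTgctatgccAAC
gas1, near (I:4881063-4881076): GTTgctaggacAAC
gas1, far (I:4881225-4881238): GTTaccaggccAAC
ags1 (III:1372972-1372985): GTTtccgaggcAAC
The cts2 match was centred 1 bp from the Sak1 centre and 3 bp from the Fkh2 centre. The ags1 match was 13 bp from the Sak1 centre and 70 bp from the Fkh2 centre. The near gas1 match was 72 bp from the Sak1 centre and 30 bp from the Fkh2 centre, and the far one overlaps the RFX word. Further matches at exg1 and cts2 overlap a forkhead word. No match lay within 150 bp of the gas5 centres or of the chs2 centre, the gene without a listed Sak1 peak. Over all nuclear peaks the arrangement was within 150 bp of 36.4% of Sep1 centres, 23.0% of Fkh2 centres and 52.2% of Sak1 centres.

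The MCB word ACGCGT, the site of the factor of G1/S transcription, lay at chs2, 31 bp from the Fkh2 centre, and at none of the other 5 genes; it is in 3.25% of promoters and at 11.2% of Fkh2 peaks. A word match is a description of the letters and does not show which protein is bound.

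Lists of 43 genes were drawn up, of which 40 matched the annotation, and the genes outside the 6 make up 34 of these. Of the 34, 0 had a Sep1 peak in reach, 0 a Fkh2 peak and 1 (eng1) a Sak1 peak. With 0.176% (Sep1), 2.84% (Fkh2) and 1.06% (Sak1) of all genes in reach of a peak, counts this low in 34 genes do not set the lists apart, and the 6 genes left out of them had been chosen for their peaks. Among beta-glucan synthases and transferases, gas1 and gas5 had peaks and the other 6 of 8 (bgs1, bgs2, bgs3, bgs4, gas2 and gas4) had none in any list. Of 5 alpha-glucan synthase genes, ags1 had peaks and mok11 to mok14 had none. None of 10 matched regulators of glucan synthesis, among them the GTPase gene rho1 and the kinase genes pck1 and pck2, had a peak in any list. Of 10 matched chitin and chitosan genes, cts2 and chs2 had peaks.

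Of 7 glucanase genes, exg1 and eng1 had peaks. The glucanase gene eng1, whose product cuts beta-glucan of the septum, had a Sak1 peak with a count of 1434, but its centre lay 940 bp upstream of eng1 and 57 bp upstream of slp1. When peaks were given to their nearest start alone, eng1 dropped out of the Sak1 list and the 6 wall genes kept their peaks in all 3 lists.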

How the data were processed

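Per the labels, each of the 4 ChIP samples (3 tagged strains, 1 untagged) pooled 2 experiments, with 60 mL of culture, 20 uL of IgG beads and washes at 1 M and 500 mM NaCl. Bowtie2 2.1.0, SAMtools 0.1.18 and HOMER are named in the submitters' processing notes; the sources used here give neither their roles nor a genome build. The authors called peaks, per the file headers, with HOMER findPeaks against the untagged library, at a false discovery rate of 0.001, 4 fold over the control and over 10000 bp, and Poisson p-values of 1e-04. The deposited tag counts are a signal scaled to 10000000 tags. The deposited folds are ratios, the focus ratio a fraction and the findPeaks score a score, and the deposited p-values were used for ranking alone. A peak's score, fold and count are the authors'.

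Coordinates were read against ASM294v3 (RefSeq), whose build may differ from the authors'. Tags were recovered from counts and header totals, and all 210 peaks gave a multiple of 0.5 tags within 0.01. The scaling in the files gives about 486218 control tags. Ratio intervals used SciPy 1.17.1 with Python 3.11.15. Gene assignment, word search and intervals were tested on simulated data with planted peaks and words. Named genes are the 6 chosen genes, other genes in reach of their peaks and genes of fixed wall lists with a peak. List genes without a peak, and slp1, were named for contrast. The 6 genes, the lists and the words were chosen with earlier results of these data known. A planned word and a planned gene list are not reported here. The annotation gave no match for chr1, chr3 and sup11. With 1 pooled library per factor there is no replicate error and no test between factors.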

Additional observations from a re-analysis of the deposited data

How the results depend on the processing

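The counts of the 6 genes with a peak were the same, or changed by 1 gene, under every alternative reach, the nearest start, the start codon and a control raised to its genome-wide mean. With folds of at least 8, Sep1 kept 1 of 3 (exg1) and, in all wall lists together, 1 of 3 genes. That cut-off kept 6 of the 11 Sep1 peaks, and 5 of the 9 genes with a Sep1 peak in reach. In the upper 50% of peaks by count, Sak1 kept 2 of 5 (gas1 and cts2) and, in all wall lists together, 2 of 6 genes. This setting kept 23 of the 47 Sak1 peaks by construction, and 28 of the 54 genes with a Sak1 peak in reach. The 3, 3 and 5 shared peaks (Sep1 with Fkh2, Sep1 with Sak1, Fkh2 with Sak1) became 3, 2 and 5 at 50% overlap and 3, 2 and 4 with centres within 100 bp. Of all nuclear peaks, 72.7% in the Sep1 list and 78.3% in the Sak1 list overlapped a Fkh2 peak. A Sak1 peak overlapped 72.7% of the Sep1 list and 23.7% of the Fkh2 list. A Sep1 peak overlapped 5.26% of the Fkh2 list and 17.4% of the Sak1 list. Shares over all peaks at the 2 stricter settings were not computed. At the 6 genes, GTAAACA was at 2 of 5 Sak1 peaks within 75 bp, against 4 within 150 bp. The RFX words were at 1 Fkh2 peak within 75 bp or within the called peak, against 2, and the short form at 4 Fkh2 and 3 Sak1 peaks. After seeing the data, GTTGCTA was tried, at 3 Sak1 peaks, GTTGTCA, at 0 peaks of the 6 genes in each list (18.2% of all nuclear Sep1, 11.2% of Fkh2 and 34.8% of Sak1 peaks), and the inverted repeat, at 4 Fkh2 and 4 Sak1 peaks. The cause was not tested. No paired analysis was possible because each factor has 1 pooled sample, and no replicate could be left out. How far depth limits the lists was not tested. Some peaks rest on few tags: the Sep1 peaks at the 6 genes on 80 to 88, and the Sak1 peak at exg1 on 85.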
